A study of Mus musculus with 4 samples.

Results

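A set of 35 genes of blood vessels, lymphatic vessels and their growth signals was followed through 4 tissues of the mouse mandibular arch and tongue. The members were chosen by name, as every probe whose gene name in the scanner files was on the list, and all 35 were found among 27224 genes, on 57 probes. For each gene the brightest probe was taken, and its other probes are given where they differ. The tissues came from ICR embryos, an outbred stock, and each array holds RNA of several embryos; at which step they were pooled is not stated. MMA is the medial mandibular arch at E9.5 (12 embryos), LLS the lateral lingual swellings at E11.5 (4 embryos), LMA the lateral mandibular arch at E11.5 (4 embryos) and T the medial tongue at E14.5 (4 embryos). Each tissue was 1 pool on 1 single-colour Agilent array, so no difference has a replicate check and no test between tissues was possible. The labels name no treatment and no engineered allele.

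Vessels of the early embryo form from endothelial cells that respond to VEGF through the receptor tyrosine kinases encoded by Kdr, Flt1 and Flt4. A further receptor pair, encoded by Tek, the angiopoietin receptor gene, and its partner Tie1, steadies the young vessel wall. Endothelial identity is kept by transcription factors of the ETS family, such as Erg and Fli1, and of the SoxF group. Lymphatic endothelium is set aside later, from veins, under Prox1, and mural cells (pericytes and smooth muscle) are drawn to vessels by PDGF-B. Head vessels invade the arch and tongue mesenchyme alongside muscle and nerve, and circulating blood cells share several genes with the vessel lining.

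Signals well above background were found for 57.0% to 62.9% of the 59305 non-control spots per array, and 0 were saturated. Of the 35 members, 31 were well above background in all 4 tissues, and Flt4, Lyve1, Cspg4 and Clec14a in some of them. A level is the processed signal, which was not scaled between arrays. A difference is taken on the log2 scale after the 75th percentile of each array (a signal of 422, 456, 507 and 491 in MMA, LLS, LMA and T) was subtracted, and a difference of 1 is 2-fold. Where a probe was well above background in only 1 of a pair of tissues, its difference is a bound, written as "at least". The spread between single spots, from 171 probes printed 10 times, gave an SD of 0.059 to 0.062 for a log2 difference, and the error given by the scanner software had a median of 0.21 for members measured in both tissues. Neither covers differences between pools. Marker lists were read beside the members: all 7 arch mesenchyme markers were well above background in MMA, LLS and LMA and 6 of them in T, and of the 6 skeletal muscle markers 2 were in MMA, 5 in each of LLS and LMA and 6 in T. The labels' extraction text names another tissue, the cerebellum. Of its 7 markers, Atoh1, Gabra6 and Calb1 were not well above background on any array, Pax2, Zic1 and Pcp2 were on all 4, and En2 in MMA and LMA. Pcp2 gave 46.7 (MMA), 584 (LLS), 1560 (LMA) and 43.2 (T). Pax2 lay between 93.9 and 108 on the arrays, and Zic1 between 37.2 and 72.9.

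Levels of the set were highest in LMA or MMA and lowest in T or LLS for most members. Among the 31 members well above background everywhere, the highest scaled level lay in LMA for 14 (45.2%), in MMA for 13 (41.9%), in T for 4 (12.9%) and in LLS for 0. Over all 14815 genes of that kind, LMA was highest for 18.0%, MMA for 42.3%, T for 26.3% and LLS for 13.4%. The lowest level lay in T for 14 members (45.2%), in LLS for 11 (35.5%), in MMA for 6 (19.4%) and in LMA for 0, against 41.8%, 10.9%, 26.3% and 21.0% of all genes. The members thus departed from the background chiefly in how often LMA was the high tissue and LLS the low one. In bulk tissue, fewer endothelial cells and less RNA per cell cannot be told apart.

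**Figure D1:**
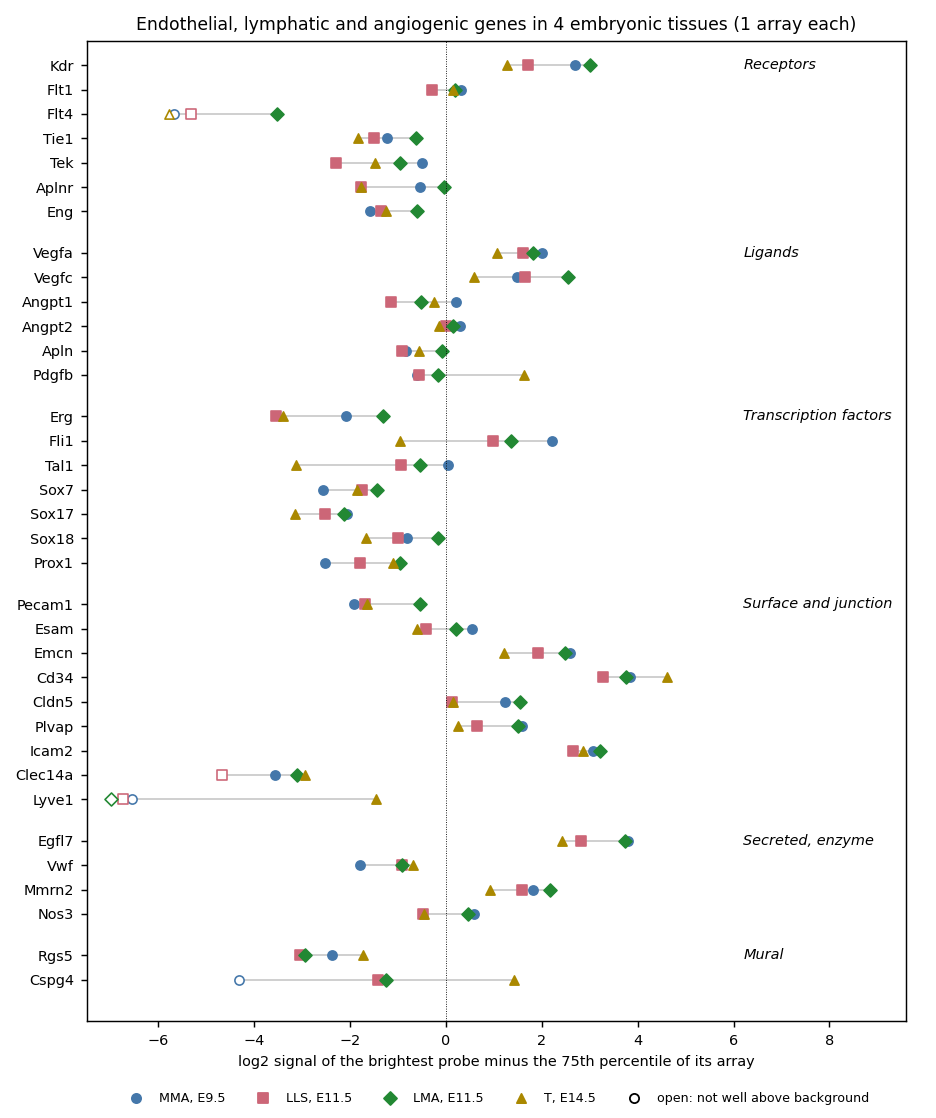
Scaled level of the brightest probe of each of the 35 members (x axis, log2 signal minus the 75th percentile of its array) in MMA, LLS, LMA and T, 1 array each, grouped by role; open symbols are not well above background. LMA is the rightmost point for 14 of the 31 members that were well above background in all tissues, and Lyve1 has 1 filled point, in T.

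Counts of members at least 2-fold apart were read against the same count over all genes. In LLS minus LMA, 34 members were compared. Of them 0 were higher and 7 lower by at least 2-fold, and their median was -0.68. Over all 17747 genes compared, the shares were 3.62% and 2.87% and the median 0.01. By sign alone, 33 of the 34 were lower in LLS. With normexp background correction 4 members, not 7, passed 2-fold here. In LLS minus MMA, 1 of 33 members was higher and 7 lower (median -0.56), against 9.67% and 5.59% of 17116 genes, and with normexp 1 and 3 (median -0.38). In LMA minus MMA, 5 of 34 members were higher and 0 lower (median 0.31), against 10.5% and 7.16% of 17747 genes, so the higher share was not far from the background, and with normexp 2 were higher. In T minus LLS, 6 of 34 were higher and 3 lower (median 0.01), against 12.8% and 6.02% of genes, which is near the background in both directions (7 and 2 after cyclic loess). In T minus MMA, 5 of 34 were higher and 12 lower (median -0.73), against 18.2% and 13.8% of 17648 genes. The same split was 6 higher and 8 lower after cyclic loess, and 3 and 6 with normexp. Single calls that ended with normexp, which adds an offset to every signal, were those of Pecam1, Tek and Clec14a in LLS minus LMA; Erg, Cldn5, Aplnr and Nos3 in LLS minus MMA; Pecam1, Sox7 and Prox1 in LMA minus MMA; Vegfc, Rgs5 and Clec14a in T minus LLS; and Erg, Esam, Sox17, Cldn5, Vwf, Prox1, Aplnr and Nos3 in T minus MMA. These comparisons share arrays, LLS in 3 of them and MMA in 3, and are not independent of each other.

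**Figure D2:**
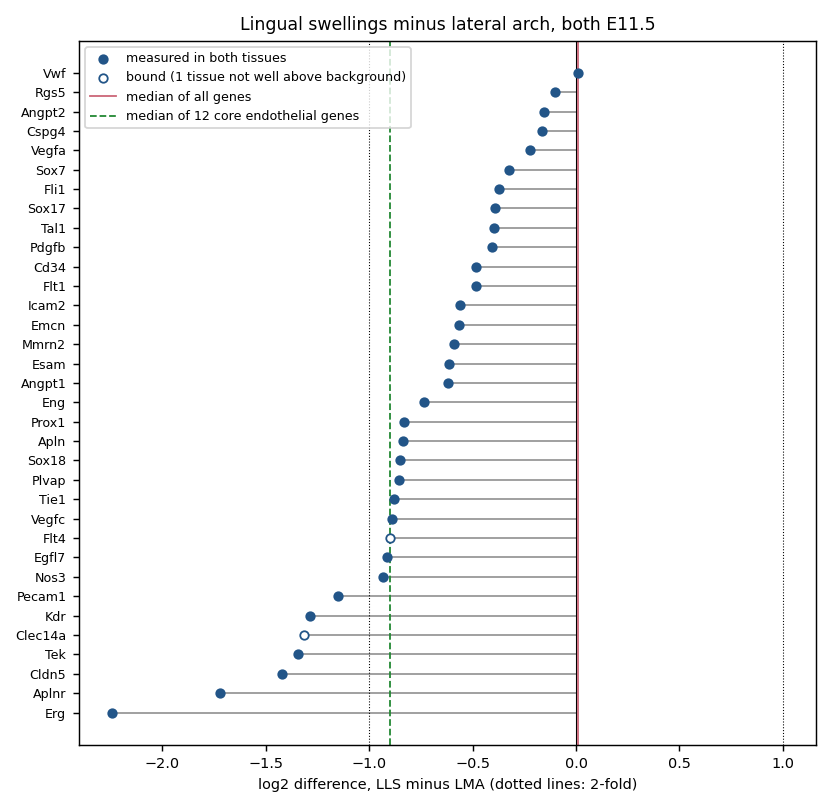
Log2 difference LLS minus LMA (x axis) for the 34 members compared, 1 array per tissue, sorted; open circles are bounds, dotted lines mark 2-fold, and vertical lines mark the median of all genes (0.01) and of 12 core endothelial genes (-0.90). All points but Vwf (0.01) lie left of 0, and Erg (-2.24) lies farthest.

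Each VEGF receptor gene had a lower value in the swellings than in the lateral arch of the same stage, and Kdr by more than 2-fold. Kdr, which encodes the main signalling receptor for VEGF-A, had signals of 2733 (MMA), 1488 (LLS), 4040.2 (LMA) and 1178 (T). It was high in MMA and LMA and low in LLS and T, with LLS minus LMA at -1.29 (2.44-fold lower) and T minus MMA at -1.43 (2.70-fold lower). Its other 2 probes were not well above background on any array. Flt1, whose product binds VEGF-A strongly and limits its action, gave 527 (MMA), 371 (LLS), 577 (LMA) and 542 (T) by its brightest probe. These values lay within 1.54-fold of each other after scaling. Flt4, the VEGF-C receptor of lymphatic and early venous endothelium, was well above background in LMA alone, at 44.2 against 8.29 in MMA, 11.3 in LLS and 8.96 in T. The bound for LLS minus LMA was -0.90, so Flt4 was at least 1.87-fold lower in LLS than in LMA. As a bound under 2-fold it was not counted here, though the difference itself may be larger.

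Probes within Flt1 did not give 1 profile. A pair of others lay 75.1 and 76.9 kb from the brightest, both assigned in the file to a transcript model other than that of the brightest. No annotation of that build was at hand, so exon and UTR are not given. The first 30 bases of each 60-base probe (mm9 positions of the whole probe, none capitalised because no part is singled out) show which stretches were read:
Flt1 brightest probe, chr5:148373791-148373850, minus strand: aagtaaagaaaagctatcgggattctctgg
Flt1 probe at 75.1 kb, chr5:148448888-148448947, minus strand: tcctcagaacaaaacctgaactgaactgag
Flt1 probe at 76.9 kb, chr5:148450688-148450747, minus strand: aggaggaatgattgtaccacacaaagtcat
The probe at 75.1 kb gave 212 (MMA), 117 (LLS), 209 (LMA) and 106.9 (T), and the one at 76.9 kb gave 186, 85.6, 133 and 72.0 in the same order. In T minus MMA they differed by -1.21 and -1.59, while the brightest probe differed by -0.18. Flt1 is known to give a short transcript for a soluble receptor besides the full-length one, and which form these probes read is not stated in the files. The fourth Flt1 probe was not well above background in any tissue.

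Tek, the angiopoietin receptor gene, was lowest in LLS at 92.6, with 297 in MMA, 261 in LMA and 176 in T. It was 3.47-fold lower in LLS than in MMA (-1.79) and 2.54-fold lower than in LMA (-1.34). Tie1, the partner receptor gene, gave 179 (MMA), 161 (LLS), 330.0 (LMA) and 138 (T). None of its differences in the 5 comparisons reached 2-fold. LMA and T, a pair that is not among the 5, lay 2.31-fold apart. Aplnr, the apelin receptor gene of venous and sprouting endothelium, separated the tissues into a high and a low pair. Its signals were 289.5 in MMA and 489 in LMA against 134 in LLS and 144 in T. LLS minus LMA was -1.72 (3.30-fold lower), LLS minus MMA -1.23 and T minus MMA -1.23. Eng, which encodes a TGF-beta family co-receptor of endothelium, gave 141 (MMA), 179 (LLS), 332 (LMA) and 205 (T). Its largest difference was LMA minus MMA, 0.97, under 2-fold.

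None of the 6 ligand genes reached 2-fold in LLS minus LMA. Vegfa, the chief growth signal for vessels, gave 1679 (MMA), 1380.0 (LLS), 1790.5 (LMA) and 1028 (T), a range of 1.90-fold after scaling. Vegfc, the lymphatic and early venous growth factor gene, stood highest in LMA at 2947, with 1180.5 in MMA, 1433 in LLS and 739 in T. It was 2.08-fold higher in LMA than in MMA (1.06) and 2.09-fold lower in T than in LLS (-1.06), the latter under 2-fold in 3 of 7 alternatives (down to -0.86). Its other 2 probes differed by 0.98 and 0.99 in LMA minus MMA and by -1.15 and by a bound of -1.40 in T minus LLS, so LMA was highest and T lowest by all 3. Vegfc and Flt4 were thus both highest in LMA, the first well above background everywhere and the second in LMA alone.

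Among the Vegfa probes, 1 ran against the brightest. It is printed as for Flt1, after the brightest and a probe that shared the order of tissues with the brightest:
Vegfa brightest probe, chr17:46154387-46154446, minus strand: cagatcggtgacagtcactagcttgtcctg
Vegfa probe at 1.12 kb, chr17:46155512-46155571, minus strand: actggattcgccattttcttatatctgctg
Vegfa probe at 4.84 kb, chr17:46159226-46159282, minus strand: aaagggaaagggtcaaaaacgaaagcgcaa
The last of these gave 26.9 (MMA), 35.7 (LLS), 54.4 (LMA) and 123 (T). It was higher in T than in MMA by 1.98 and higher in T than in LLS by 1.68. In T minus MMA the brightest differed by -0.93 and the probe at 1.12 kb by -0.88. Longer VEGF-A isoforms are known to carry a basic, heparin-binding stretch that shorter ones lack, and whether this probe reads such isoforms alone was not tested. It was also the dimmest of those printed on every array.

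**Figure D3:**
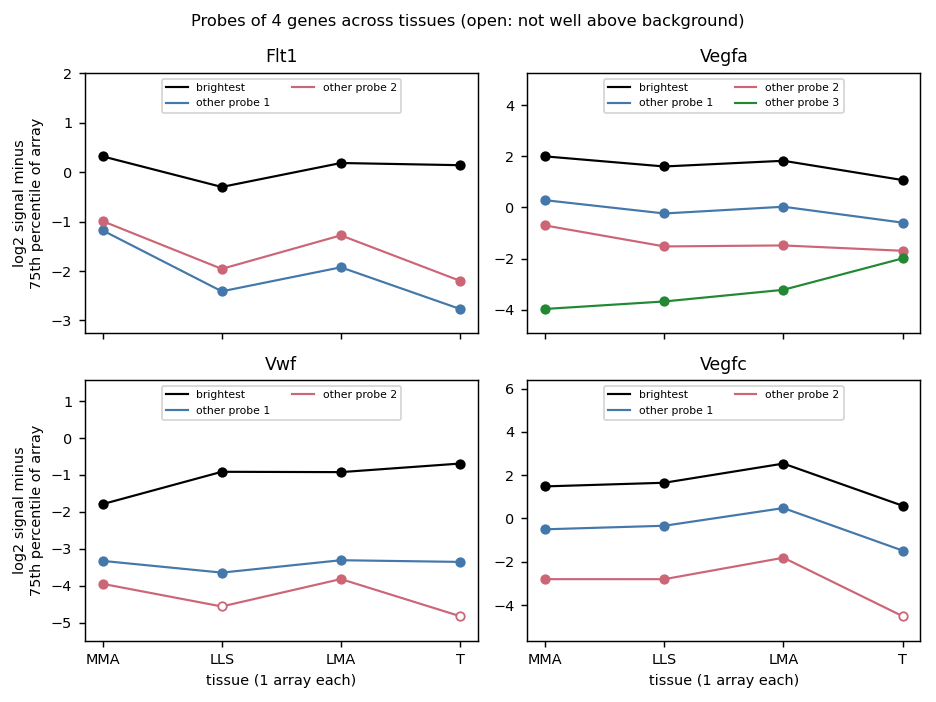
Log2 level (y axis, signal minus the 75th percentile of the array) of each usable probe of Flt1, Vegfa, Vwf and Vegfc across the 4 tissues (x axis, 1 array each); black lines are the brightest probes and open circles are not well above background. The lines of Vegfc run in parallel, while 1 Vegfa probe is highest in T, where the others are lowest.

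Of the angiopoietin genes, Angpt1, the agonist made by cells around the vessel, gave 486 (MMA), 206 (LLS), 352 (LMA) and 409.9 (T). It was 2.55-fold lower in LLS than in MMA (-1.35), the same direction as its receptor gene Tek. Angpt2, whose product loosens vessels for sprouting, was level across the tissues, with 516, 454, 561 and 443 in MMA, LLS, LMA and T and a range of 1.35-fold. Apln, the apelin gene of tip cells, gave 236 (MMA), 242 (LLS), 481 (LMA) and 331 (T) and stayed within 1.79-fold. Pdgfb, the endothelial signal that draws mural cells, differed from the other ligands. It gave 276 (MMA), 308 (LLS), 453 (LMA) and 1519 (T), and was 4.59-fold higher in T than in LLS (2.20) and 4.74-fold higher than in MMA (2.24). Another Pdgfb probe was at least 1.84 higher in T than in LLS and 1.08 higher than in MMA.

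The transcription factor genes did not share 1 order of tissues. Erg, an ETS factor gene of endothelium, gave 98.8 (MMA), 39.0 (LLS), 205 (LMA) and 46.7 (T). Its LLS minus LMA difference of -2.24 (4.73-fold lower) was the largest of the set in that comparison by the brightest probes as scaled here, but with normexp it was -1.25, smaller than Aplnr (-1.38) and Cldn5 (-1.36). It was also lower in LLS (-1.45) and in T (-1.30) than in MMA. Fli1, an ETS factor gene of both endothelium and blood, ordered the tissues differently. It gave 1963 (MMA), 896 (LLS), 1288 (LMA) and 254 (T), 9.0-fold lower in T than in MMA (-3.17) and 3.80-fold lower than in LLS (-1.93). Tal1, which acts in blood and endothelial precursors, followed the same order, with 437 (MMA), 236 (LLS), 346 (LMA) and 56.4 (T). It was 9.02-fold lower in T than in MMA (-3.17) and 4.51-fold lower than in LLS (-2.17). Both Fli1 and Tal1 were lower by these values while the 12 core endothelial genes (Pecam1, Kdr, Tie1, Tek, Erg, Esam, Emcn, Egfl7, Icam2, Mmrn2, Clec14a and Eng) had a median of -0.08 in T minus LLS.

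Blood cell markers were read beside Fli1 and Tal1, and not all followed them. Of 8 erythroid markers, 5 were at least 2-fold lower in T than in LLS and 1 higher (median -1.57), and all 3 embryonic globin genes were lower (median -5.86). Of 8 megakaryocyte and platelet markers, 8 were well above background in LLS and LMA, 7 in MMA and 3 in T, and 3 were at least 2-fold lower in T than in LLS. The platelet sum, not scaled between arrays, was 1558 (MMA), 3384 (LLS), 3468 (LMA) and 1737 (T). Pf4 alone gave 1218 of it in MMA and 1558 in T. In T minus MMA, 5 of 7 platelet markers compared were lower by sign and 2 higher (median -0.44). The sum over the 8 erythroid markers was 192836 (MMA), 191341 (LLS), 197204 (LMA) and 206685 (T), with the adult globin genes Hba-a1 at 0.00 and Hbb-b1 at 2.28 in T minus LLS. Hba-a1 alone gave 183822 (MMA), 185209 (LLS), 189993 (LMA) and 198876 (T) of this sum. By sign, 7 of the 8 markers were lower in T than in LLS. The erythroid regulator gene Gata1, a partner of Tal1, gave 1128 in MMA, 248.8 in LLS and 353 in LMA and was not well above background in T. Summed over the 3 embryonic globin genes the signal was 467766 (MMA), 412264 (LLS), 418449 (LMA) and 44828 (T). The part of blood cells in the Fli1 and Tal1 values was not tested.

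The SoxF genes act together in arterial and lymphatic differentiation. Sox7 gave 71.4 (MMA), 134 (LLS), 187 (LMA) and 136 (T) and was lowest in MMA, with LMA minus MMA at 1.13 (2.19-fold higher), under 2-fold in 3 of 7 alternatives (lowest 0.65). Sox17, the arterial member, gave 100.3 (MMA), 79.1 (LLS), 115 (LMA) and 55.1 (T), 2.12-fold lower in T than in MMA (-1.08), under 2-fold in 3 of 7 alternatives (down to -0.69). Sox18, the member known for inducing Prox1, gave 241, 227, 454 and 155 in MMA, LLS, LMA and T. None of its differences in the 5 comparisons reached 2-fold. Its highest and lowest tissues, LMA and T, are not a pair among the 5 and lay 2.84-fold apart.

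Genes of the endothelial surface and its junctions did not all peak in the same tissue. Pecam1, the adhesion molecule CD31, gave 112 (MMA), 141 (LLS), 348 (LMA) and 156 (T). It was the single member called specific to LMA by the outlier step of ROKU, 2.17-fold above the nearest tissue, a call made for 0.673% of 18718 genes. With normexp its LLS minus LMA was -0.88 and its LMA minus MMA 0.99, both short of 2-fold. Other members called were Fli1 and Tal1 (T low), Lyve1 and Pdgfb (T high) and Cspg4 (MMA low). The shares of members and of all genes were 5.71% and 2.55% (T low), 5.71% and 8.2% (T high) and 2.86% and 4.17% (MMA low). Cldn5, the endothelial tight-junction claudin, gave 988 (MMA), 499 (LLS), 1488 (LMA) and 545 (T), with LLS minus LMA at -1.42 (2.68-fold lower) and LLS minus MMA at -1.10. Clec14a, a surface lectin gene of vessels, was dim, with 35.5 in MMA, 58.9 in LMA, 63.8 in T and a value not well above background in LLS. Its bounds were at least 2.48-fold lower in LLS than in LMA and at least 2.78-fold higher in T than in LLS. With normexp these differences shrank to -0.37 and 0.48.

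Several surface genes were lower in T than in MMA without a 2-fold difference between LLS and LMA. Emcn, a sialomucin gene of veins and capillaries, gave 2532 (MMA), 1712 (LLS), 2814 (LMA) and 1143 (T), 2.58-fold lower in T than in MMA (-1.37). Esam, an adhesion gene of endothelial junctions, gave 612, 343, 583 and 321 in MMA, LLS, LMA and T, with T minus MMA at -1.15, under 2-fold in 3 of 7 alternatives (down to -0.91). Plvap, which forms the diaphragms of fenestrae and caveolae, gave 1273, 711, 1431 and 587 in the same order, with T minus MMA at -1.34. Icam2 gave 3550.1 (MMA), 2867 (LLS), 4700.2 (LMA) and 3570.3 (T) and stayed within 1.47-fold. Cd34 stood apart from this group: 5999 (MMA), 4384 (LLS), 6809 (LMA) and 11928 (T), 2.53-fold higher in T than in LLS (1.34). Its second probe differed by 1.37 in the same comparison. Cd34 is also known from blood progenitors, fibroblasts and muscle progenitors.

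Among secreted proteins and enzymes, Egfl7, a matrix-bound factor gene of endothelium, gave 5865 (MMA), 3222 (LLS), 6746 (LMA) and 2622 (T), 2.60-fold lower in T than in MMA (-1.38). Mmrn2, an endothelial matrix gene whose product binds CLEC14A, gave 1481, 1364, 2282 and 929 in MMA, LLS, LMA and T. It reached 2-fold in none of the 5 comparisons, but LMA and T, a pair not among them, lay 2.38-fold apart. Nos3, the endothelial nitric oxide synthase gene, gave 628 (MMA), 328 (LLS), 696 (LMA) and 354 (T), with LLS minus MMA at -1.05 and T minus MMA at -1.04, each under 2-fold in 3 of 7 alternatives (down to -0.91 and -0.80). Vwf, the clotting factor gene of endothelium and megakaryocytes, was the single member whose brightest probe was not lower in LLS than in LMA (0.01), but its other 2 probes were, by -0.34 and a bound of -0.60. It gave 122 (MMA), 242 (LLS), 267 (LMA) and 304 (T), and was 2.14-fold higher in T than in MMA by the brightest probe. However, another Vwf probe well above background everywhere differed by -0.03 and the remaining one by a bound of -0.25, so the Vwf call rests on 1 probe.

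Of the lymphatic members, Lyve1, a hyaluronan receptor gene of lymphatic endothelium and of some macrophages, was well above background in T alone, at 179. On the other arrays its signal lay between 3.98 and 4.47. It was at least 7.80-fold higher in T than in LLS and at least 6.94-fold higher than in MMA, and it has a single probe. With normexp these differences were 1.55 and 1.44. Prox1, the lymphatic regulator gene that is also expressed in muscle and other tissues, gave 72.9 (MMA), 132 (LLS), 260.0 (LMA) and 229 (T). It was 2.97-fold higher in LMA than in MMA (1.57) and 2.70-fold higher in T than in MMA (1.43), and its second probe differed by 1.88 and 2.23. Flt4, as given above, was not well above background in T, where Lyve1 was.

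Of 9 other lymphatic genes compared, from a list of 10, T minus LLS was past 2-fold on the higher side for 3 and on the lower side for 1, and by sign 7 were higher and 2 lower. The chemokine gene Ccl21a was 3.55 higher in T than in LLS, Vegfd, another lymphatic growth factor gene, 4.00 higher and Ccbe1, which helps to activate VEGF-C, 1.38 higher, while for Foxc2, a lymphatic valve regulator gene that is also expressed in arch mesenchyme, T minus LLS was -3.90. In LLS minus LMA, 4 of 9 were at least 2-fold lower, Ccbe1 (-2.45), Ccl21a (-1.79), Reln (-1.10) and Mmrn1 (-1.10), and 1 was higher. Macrophage markers were higher in T than in LLS beside Lyve1, 8 of 11 compared by at least 2-fold with 0 lower (median 1.29). Their summed signal was 791 (MMA), 2873 (LLS), 3937 (LMA) and 6995 (T), and Mrc1, a marker of Lyve1-positive macrophages, gave 163 in LLS, 213 in LMA and 582 in T. Skeletal muscle markers were higher in T than in LLS, 6 of 6 with a median of 6.96. Prox1 differed there by 0.69 by its brightest probe, under 2-fold, and by 1.04 by its second. The part of macrophages and of muscle in these values was not tested.

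Both mural members were higher in T than in LLS by more than 2-fold. Cspg4, the NG2 proteoglycan gene of pericytes and of immature muscle and glia, gave 171 (LLS), 213 (LMA) and 1314 (T) and was not well above background in MMA. Both E11.5 tissues were at least 7.13-fold (LLS) and 8.0-fold (LMA) above MMA, differences that were 1.29 and 1.40 on the log2 scale with normexp. It was 7.14-fold higher in T than in LLS (2.84) and at least 50.9-fold higher in T than in MMA. A dimmer probe was 1.57 higher in T than in LLS and at least 1.71 higher than in MMA, so the size of the difference depends on the probe. Rgs5, a pericyte gene, gave 81.6 (MMA), 55.3 (LLS), 66.1 (LMA) and 148 (T), 2.49-fold higher in T than in LLS (1.32).

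A list of 15 further mural cell genes was read for the same comparison. Of the 15, 9 were at least 2-fold higher in T than in LLS and 2 lower, with a median of 1.36. Higher were, among others, the pericyte channel genes Kcnj8 (1.15) and Abcc9 (2.07), Heyl (2.14), Ndufa4l2 (3.88) and the contractile genes Tagln (2.61) and Cnn1 (1.97). Pdgfrb, the receptor gene for PDGF-B, was lower in T than in LLS (-1.23), and so was the smooth muscle myosin gene Myh11 (-1.03). Pdgfrb gave 1363 (MMA), 1876 (LLS), 2820.5 (LMA) and 861 (T), so it was lowest in T, where its ligand gene Pdgfb was highest. Des and other genes of this list are expressed in skeletal muscle as well, and the muscle markers given above were higher in T.

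**Figure D4:**
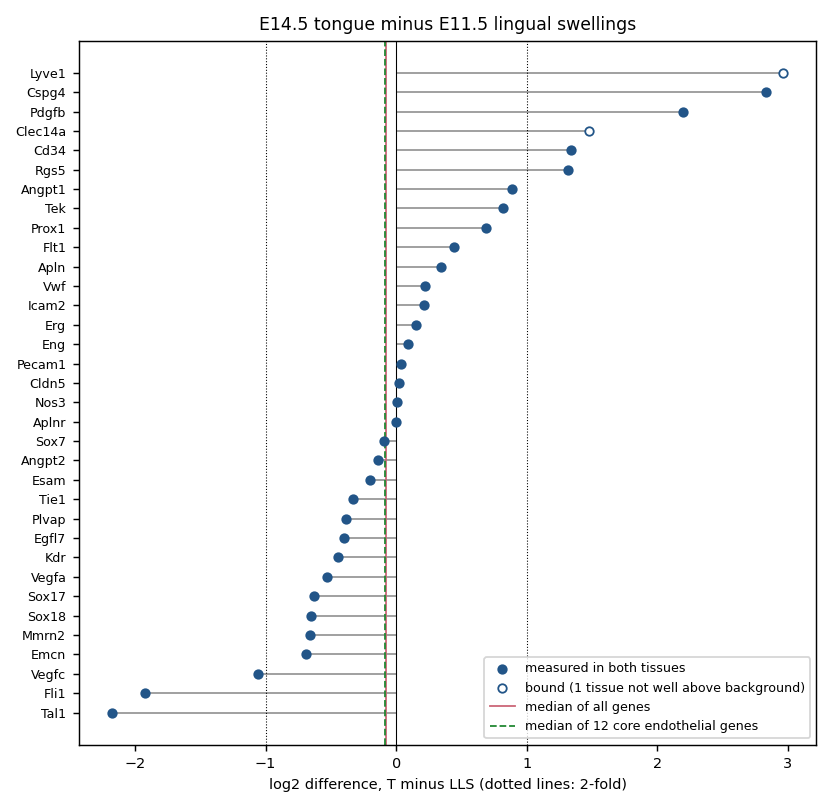
Log2 difference T minus LLS (x axis) for the 34 members compared, 1 array per tissue, sorted; open circles are bounds, dotted lines mark 2-fold, and the medians of all genes (-0.07) and of the 12 core endothelial genes (-0.08) lie close together. Lyve1, Cspg4, Pdgfb, Clec14a, Cd34 and Rgs5 lie right of 2-fold and Vegfc, Fli1 and Tal1 left of it.

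To see which members departed from the vessel lining as a whole, each difference was set against the median of the core endothelial genes. This median was -0.90 in LLS minus LMA, -0.76 in LLS minus MMA, 0.33 in LMA minus MMA, -0.08 in T minus LLS and -0.93 in T minus MMA. In LLS minus LMA, all 22 members outside the core lay within 2-fold of it. In LLS minus MMA, 17 of 21 did so and 4 lay above. In T minus LLS, 15 of 22 did so, while Lyve1, Cspg4, Pdgfb, Cd34 and Rgs5 lay above and Fli1 and Tal1 below. In LMA minus MMA, 18 of 22 did so, with 2 above and 2 below. In T minus MMA, 11 of 22 lay within 2-fold, 9 above and 2 below. Over all genes the shares past 2-fold given above were likewise smallest in LLS minus LMA and largest in T minus MMA. So nothing particular to the members is read from this order. Those shares were taken without subtracting a core median. The share of all genes within 2-fold of the core median was not computed, so no background stands beside these counts. Core genes were left out of the counts above, and some lay past 2-fold from their own median. They were Erg in LLS minus LMA (-1.34), Tek in LLS minus MMA (-1.03) and Pecam1 in LMA minus MMA (1.04). Clec14a did so in T minus LLS (1.56), and Pecam1 (1.19), Eng (1.26) and Clec14a (1.56) in T minus MMA. All of these are differences between probes of the same arrays and carry no test.

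**Figure D5:**
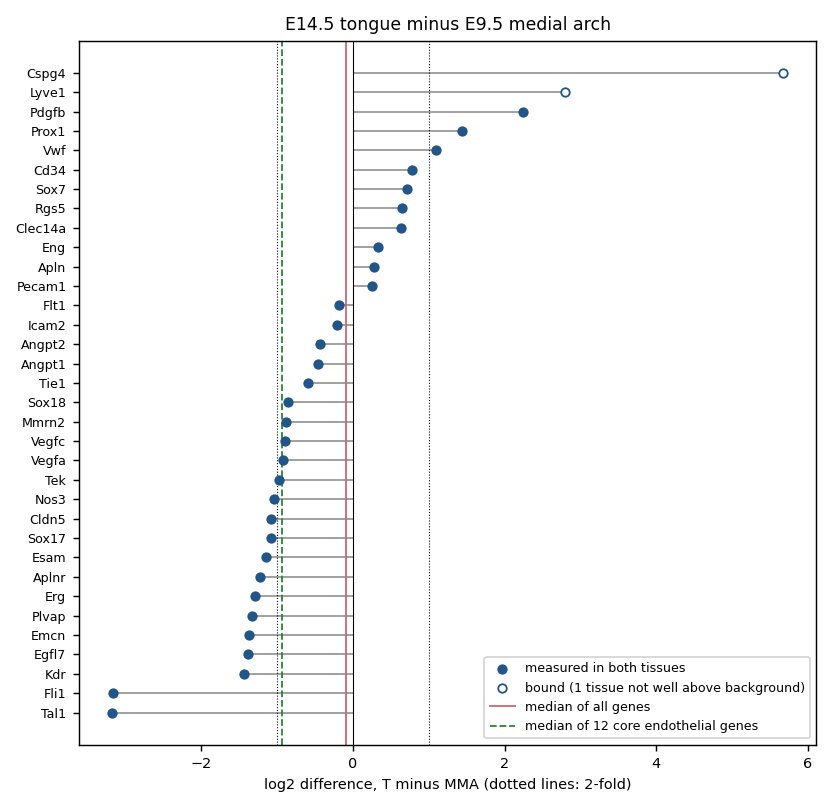
Log2 difference T minus MMA (x axis) for the 34 members compared, 1 array per tissue, sorted; open circles are bounds, dotted lines mark 2-fold, and vertical lines mark the median of all genes (-0.10) and of the 12 core endothelial genes (-0.93). Members range from Tal1 (-3.17) to Cspg4 (at least 5.67).

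Endothelial genes outside the set were compared as a list of 26. In LLS minus LMA, 20 of 25 were lower and 5 higher by sign, 1 by at least 2-fold in each direction, with a median of -0.53. Cdh5, the VE-cadherin gene that marks endothelium, gave 583 (MMA), 599.5 (LLS), 1205 (LMA) and 606 (T), and LLS minus LMA was -0.85. The member past 2-fold on the lower side was the scavenger receptor gene Stab1 (-1.30), and the one on the higher side the thrombomodulin gene Thbd (1.24). In LLS minus MMA, the 3 genes at least 2-fold lower were Etv2 (-3.44), Lmo2 (-2.19) and Rhoj (-1.10), and the 2 at least 2-fold higher Thbd (2.44) and Robo4 (1.02). Etv2, the early regulator gene of the endothelial and blood lineage, gave 292 (MMA), 29.0 (LLS), 44.9 (LMA) and 35.7 (T). Of 18 further genes of the VEGF, angiopoietin, apelin and ALK1 pathways found on the array, 16 were compared in LLS minus LMA, with 0 at least 2-fold lower and 1 higher, the VEGF co-receptor gene Nrp1 (1.03).

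Other tissue markers differed between LLS and LMA alongside the vessel genes. Of 6 epithelial markers, 4 were higher in LLS by at least 2-fold and 0 lower (median 2.65), with summed signals of 13317 in LLS and 4425 in LMA. Of 5 skeletal muscle markers compared, 4 were at least 2-fold lower (median -1.49), with sums of 2841 and 10614, and of 7 arch mesenchyme markers 4 were lower and 1 higher (median -1.50), with sums of 12308 and 40765. Macrophage markers had 0 of 11 past 2-fold in either direction (median -0.24). The part of tissue makeup in the lower vessel genes of LLS was not tested.

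Upstream sequences were read for a motif of the ETS family, since Erg and Fli1 belong to the set. RefSeq promoters (GRCm38.p6) were at hand for 19 of the 35 members, as 26 promoters, and the 250 bases before the start site were searched for AGGAAG on both strands. Of the 19 genes, 8 held it (42.1%), against 32.3% of 27025 genes, so the share was not far from the background. The core genes with 2 or more matches in a promoter are shown. For Egfl7 this is the promoter with 3 matches, and its others held 1 and 0. Matches are in capitals (CTTCCT is the motif on the opposite strand):
Egfl7, chr2:26580833-26581082, plus strand: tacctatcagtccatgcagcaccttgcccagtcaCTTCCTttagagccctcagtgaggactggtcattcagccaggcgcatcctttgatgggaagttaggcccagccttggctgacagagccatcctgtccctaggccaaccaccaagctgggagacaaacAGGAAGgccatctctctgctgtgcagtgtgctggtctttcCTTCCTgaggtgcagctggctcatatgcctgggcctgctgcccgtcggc
Emcn, chr3:137340828-137341077, plus strand: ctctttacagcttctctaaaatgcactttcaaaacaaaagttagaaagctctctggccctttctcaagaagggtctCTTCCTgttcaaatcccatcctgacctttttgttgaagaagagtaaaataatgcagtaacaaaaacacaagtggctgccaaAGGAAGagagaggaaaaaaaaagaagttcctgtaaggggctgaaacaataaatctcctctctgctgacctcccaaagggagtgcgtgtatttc
Eng, chr2:32646345-32646594, plus strand: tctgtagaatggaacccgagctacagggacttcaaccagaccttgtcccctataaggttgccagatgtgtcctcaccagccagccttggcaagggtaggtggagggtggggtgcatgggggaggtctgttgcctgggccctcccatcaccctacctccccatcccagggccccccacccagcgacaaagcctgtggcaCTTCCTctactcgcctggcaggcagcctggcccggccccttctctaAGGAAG
Kdr, Tek, Cldn5 and Clec14a, which were at least 2-fold lower in LLS than in LMA, held 0 matches in this window, and Erg held 1 in 1 of its 3 promoters. A match describes letters only, and nothing about binding follows from its presence or absence. The hypoxia motif ACGTG lay in 2 of the 19 genes (10.5%, against 18.5% of all genes) and the Sox motif ACAAAG in 5 (26.3%, against 18.6%).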

How the data were processed

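RNA of 4 pooled tissues, 1 array each, was labelled with Cy3. Scanner intensity was extracted by the authors in Agilent's Feature Extraction software (10.7.1.1 per the file headers, 9.5.1.1 per the submitters' processing notes), with background subtraction and detrending and no scaling between arrays. The deposited value table holds intensity on a linear scale, with 4460 of the probes absent. Its maximum was 308667 in each of the 4 tissues, and its medians lay between 50.493 (MMA) and 51.9337 (T). Unlike the scanner signals, its columns thus appear to have been scaled to each other, so it is not an unscaled check. Flag columns of the deposited files (other values) were used for background and outlier calls.

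Spots marked as outliers were left out, repeated spots averaged, and log2 signals scaled by the 75th percentile of 56601 probes per array. Of these, 33899 probes were named through RefSeq accessions, 9458 by current symbol, 488 by an older symbol and 2513 by the file's name; 10243 had none. Dim values were raised to the lowest signal well above background on their array. With 1 array per tissue no test was run, and genes were counted at 2-fold. The spot error covers spots only, and the number of arrays limits the precision. ROKU's outlier step used the AIC statistic with at most 1 outlier tissue and 2-fold to the nearest tissue. Named genes are the 35 members and any gene of the fixed lists, both chosen with earlier results of these data known. Alternatives were normexp (offset 50), quantile, cyclic loess (limma 3.58.1, R 4.3.3), another percentile base, no filter, the deposited table and the median over probes. Counting steps were tested on simulated data. Python 3.11.15, numpy 2.4.6 and pandas 2.3.3 were used.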

Additional observations from a re-analysis of the deposited data

How the results depend on the processing

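Of 46 member differences of at least 2-fold, 46 kept their direction under each of normexp, quantile, cyclic loess, the other percentile base, the unfiltered values and the deposited table, and 45 with the median over probes, where Vwf in T minus MMA turned to -0.027. Those still at least 2-fold numbered 25 with normexp, 39 with cyclic loess, 40 with the other percentile base, 44 with each of quantile, the deposited table and the median over probes, and 46 without filter. Not all of these are separate checks. Without filter, a difference measured in both tissues keeps the same value by construction. The median over probes cannot change the 22 members with 1 probe, and the deposited table lay close to quantile. The tallies out of 7 alternatives include these. Normexp moved counts by over 1.5 times: 4 members lower in LLS minus LMA, 3 lower in LLS minus MMA, 2 higher in LMA minus MMA, and 3 higher and 6 lower in T minus MMA; its offset shrinks differences of dim probes. The split of higher and lower members moved by over 10 percentage points to 6 and 8 with cyclic loess in T minus MMA and to 7 and 2 in T minus LLS. With cyclic loess the all-gene median shifted from -0.10 to 0.18 in T minus MMA, -0.07 to 0.09 in T minus LLS, -0.09 to 0.05 in LMA minus MMA and -0.06 to 0.06 in LLS minus MMA, and with the other percentile base to 0.10 in T minus MMA. The members' median in T minus LLS ranged from -0.06 to 0.17 and so changed sign. Without replicates no array was left out. No paired analysis was possible because each tissue has 1 array. Flt4, Clec14a and Lyve1 were limited by signal near background.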

Other observations

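Genes of the hypoxia response, a known driver of Vegfa, were compared as a list of 12. In LLS minus MMA, 4 were lower by at least 2-fold and 0 higher (median -0.64), and in T minus MMA 5 were lower and 0 higher (median -0.79). They were led by the pyruvate dehydrogenase kinase gene Pdk1 (LLS minus MMA -2.01), the glucose transporter gene Slc2a1 (-1.81), the mitophagy gene Bnip3 (-1.25) and the glycolysis gene Pgk1 (-1.16). Between LLS and LMA, 0 of 12 reached 2-fold (median -0.09), as did 0 of 12 in T minus LLS. The brightest Vegfa probe was lower but within 2-fold in the same comparisons. It was -0.39 in LLS minus MMA, -0.93 in T minus MMA, -0.22 in LLS minus LMA and -0.53 in T minus LLS. Any link between the list and Vegfa was not tested.

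Arterial genes outside the set, a list of 13, had 2 higher and 2 lower by at least 2-fold in LLS minus LMA, and by sign 3 higher and 10 lower (median -0.19). The Notch ligand genes Jag2 (1.58) and Jag1 (1.42), which are also expressed in epithelium, were higher in LLS, and the netrin receptor gene Unc5b (-1.09) and the Notch target gene Hey2 (at least -1.01) lower. The vein regulator gene Nr2f2, also a gene of mesenchyme, gave 1378 (MMA), 3989 (LLS), 1536 (LMA) and 1909 (T) and was 1.53 higher in LLS than in LMA, opposite in direction to Aplnr and Emcn on the same venous list. In LLS and LMA the platelet gene Ppbp gave 448 and 506, against 30.6 in MMA and 46.7 in T.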
